A study of Mus musculus with 8 samples.

Results

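The day 0 to day 1 course in murine skeletal myoblasts that carried a control siRNA was taken from the 4 control arrays of the series. The 2 arrays of cells given a scrambled control siRNA at day 1 were set against the 2 arrays of the same treatment at day 0, and arrays with the same replicate number formed a pair. These 4 arrays were part of 8 Illumina WG-6 v2.0 BeadChip arrays of total RNA; the other 4 came from cells given an siRNA against G9a (siG9a), a methyltransferase for lysine 9 of histone H3 whose gene is Ehmt2, at the same days and also in duplicate. The series belongs to work on cell cycle regulation in muscle cells, and its design text describes the hybridisations as biological duplicates. The labels name neither the cell line nor the event from which the days were counted. All 8 samples were given an siRNA, and the share of cells that took it up is not given. For each gene the most variable probe over the 8 arrays, by standard deviation, was used, which gave 31443 features, 21946 of them named genes.

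Myoblasts are the proliferating precursors of skeletal muscle. When growth factors become limiting they leave the cell cycle, switch on the muscle transcription factor myogenin under the control of MyoD, and then fuse into multinucleated myotubes that build sarcomeres. While they proliferate, cyclin D with its kinases keeps the retinoblastoma protein phosphorylated, E2F factors drive the genes of DNA replication, and Id proteins hold the E-proteins that MyoD needs as partners. Inhibitors of the cyclin-dependent kinases oppose the first of these steps.

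All values are taken as log2 units and count from a level set for each probe separately. The base of the deposited logarithm is not stated and could be natural, in which case all folds would be larger and the tests the same. A value of 0 is therefore no absence of signal, and levels cannot be compared between genes. A feature was called when its Benjamini-Hochberg adjusted p in limma, over all 31443 features, was under 0.05. The samples were compared without and with the replicate number as a term in the model, because samples with the same number deviated together. Values of replicate 1 are given before those of replicate 2, and standard errors (SE) belong to the model whose p is given, with n = 2 arrays a day. Precision is limited by the small number of arrays, and for 2 arrays a day the smallest p of an exact permutation test is 0.333.

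Without the replicate term 114 features rose from day 0 to day 1, 0.363% of those tested, and 239 fell, 0.76%. With it 1212 rose (3.85%) and 1563 fell (4.97%), 2775 in all (8.83%), and they included all 353 features (1.12%) called without it. Of the 21946 named genes 10.9% were called with the term, the share to set beside the counts of the gene lists below. Without the term, fewer features were called whichever control array was left out, fewest without the day 0 array of replicate 1. Each such fit leaves 1 sample in a group, and dependence on single arrays was not tested apart from that smaller number. With the term, 644 to 941 rose and 735 to 952 fell when an array was left out, fewest rises without the day 1 array of replicate 1 and fewest falls without the day 1 array of replicate 2. Of the features called without the term, 112 of 114 and 233 of 239 were called with it whichever array was left out. Median centring of each array gave 30 rises and 53 falls without and 1148 and 1618 with the term, and quantile normalization between arrays, which also removed most calls, gave 3 rises and 1 fall. In 4208 features (13.4%) both day 1 arrays lay above both day 0 arrays, and in 4109 (13.1%) both lay below. The median change over all features was 0.01. Because the normalization of the deposited values is not known, that median cannot show whether expression shifted in general. The standard deviation over all features was 0.36 and 0.41 on the day 0 arrays and 0.24 and 0.26 on the day 1 arrays. The replicates differed in the muscle genes on both days: over 21 troponin, actin and tropomyosin genes the median difference of replicate 2 minus replicate 1 was -1.43 on the day 0 arrays and -0.78 on those of day 1. These genes were called only with the replicate term. In total 88.7% of the 247 other probes for the genes called without the term moved the same way as the probe used, counted by sign alone.

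**Figure D1:**
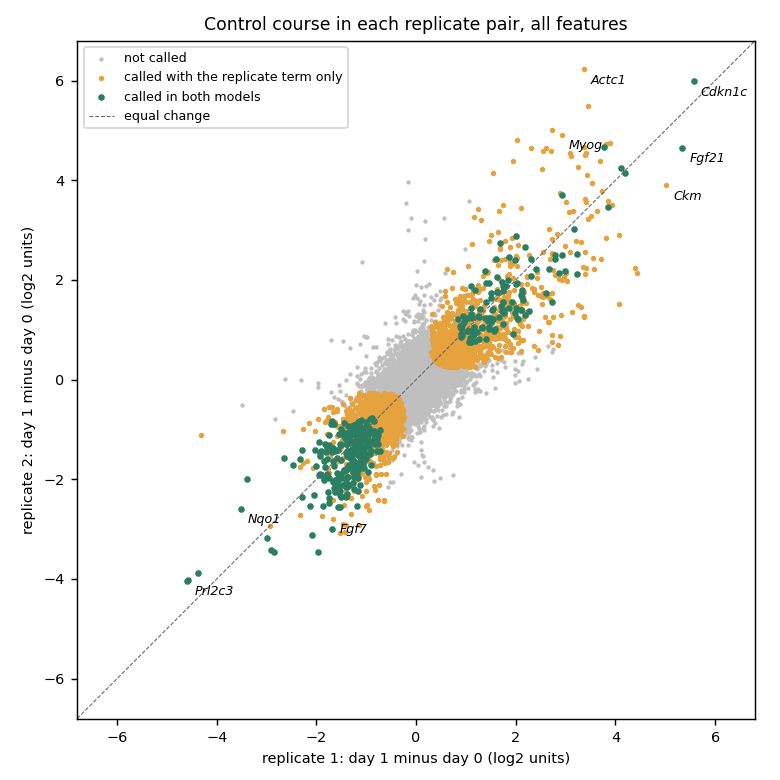
Change from day 0 to day 1 in replicate 1 (x axis) against that in replicate 2 (y axis), in log2 units, for all 31443 features; green points were called in both models and orange points only with the replicate term. Cdkn1c lies at 5.57 and 5.99 and Prl2c3 at -4.59 and -4.04, near the dashed line of equal change, while Actc1 lies well above it at 3.36 and 6.23.

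The inhibitors of cyclin-dependent kinases did not move as a group. Cdkn1c, which encodes the inhibitor p57, read -4.97 and -4.89 on the day 0 arrays and 0.61 and 1.09 on the day 1 arrays. Its rise of 5.78 ± 0.29 log2 units, 55.0-fold, was the largest among the called genes (adjusted p = 0.000545 without and 1.12e-05 with the replicate term). Cdkn1a, the inhibitor p21, read -1.32 and -3.13 at day 0 and 0.56 and -0.46 at day 1. The day 1 arrays of Cdkn1a lay above both day 0 arrays, but the replicates stood apart, and its rise of 2.28 ± 0.23 was called with the replicate term (adjusted p = 0.00035) and not without it (0.289). Cdkn3, a phosphatase that acts on cyclin-dependent kinases, fell by 1.43 in both models (adjusted p = 0.019 without the term), although its other probe was near 0, at 0.03. Cdkn2d, which encodes p19, an inhibitor of CDK4 and CDK6, fell by 1.09 ± 0.15 with the replicate term (adjusted p = 0.00193). The other 4 of the 8 inhibitors measured, Cdkn1b (p27) among them at -0.02, were called in neither model. Of the 3 Cdkn1b probes 2 went the other way.

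Of the G1 cyclins and their kinases, 5 of 9 fell and 1 rose with the replicate term, while 3 fell without either array of replicate 1 and 2 without the day 1 array of replicate 2. Ccnd1, cyclin D1, read 2.84 and 2.01 at day 0 and 0.37 and 0.29 at day 1, a fall of 4.25-fold (adjusted p = 0.019 without the term). Ccne2, cyclin E2, read 1.51 and 2.42 and then -0.16 and 0.00, a change of -2.04 ± 0.31 (adjusted p = 0.00362 with the term, 0.0524 without the day 1 array of replicate 2). Ccnd3, the D-type cyclin that remains in differentiated muscle, moved the other way, from -0.33 and -1.37 to 0.44 and -0.48. Ccnd1 and Ccnd3 thus went in opposite directions within each pair, although the arrays of Ccnd3 overlapped between the days (0.83 ± 0.12, adjusted p = 0.00259 with and 1 without the term). Ccnd2, the third D-type cyclin, read 0.73 and -0.03 and then -0.17 and 0.11 and was called in neither model, and 1 of its 4 probes went the other way.

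Among 19 pocket proteins and E2F-related factors, 6 fell and 2 rose with the replicate term, and 3 fell without either array of replicate 2. Foxm1, a transcription factor of mitotic genes, read 1.83 and 1.25 at day 0 and 0.17 and -0.38 at day 1 (-1.65 ± 0.29, adjusted p = 0.0407 without the term). Rbl1, the pocket protein p107, fell by 1.45 ± 0.26 (adjusted p = 0.0443 without the term). Tfdp1, the DNA-binding partner of E2F factors, changed by -1.14, Mybl2 (B-Myb) by -1.35 and E2f1 by -1.04, each called with the term only. The calls of E2f1 and Mybl2 were lost without an array of replicate 2 (adjusted p up to 0.333 and 0.168), and that of E2f1 also without either array of replicate 1. Rb1, the retinoblastoma gene, opposed them and read -1.37 and -1.67 at day 0 and 0.44 and -0.13 at day 1 (1.68 ± 0.14, adjusted p = 0.000179 with and 0.0693 without the term). E2f2 also rose with the replicate term, by 1.41 ± 0.10 (adjusted p = 7.68e-05), and its values at day 0, -0.67 and -1.51, lay below those at day 1, 0.69 and -0.04.

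Of 9 muscle transcription factors 4 rose and none fell with the replicate term, and none was called without it. Myog, myogenin, read -2.35 and -4.96 at day 0 and 0.57 and -0.05 at day 1. Its rise was 2.92 in pair 1 and 4.91 in pair 2, 3.92 ± 0.57 on average (adjusted p = 0.00284 with and 0.183 without the term). Mef2c, a MADS-box factor that works with the MyoD family, read -1.83 and -2.19 and then 1.3 and -0.82 (2.24 ± 0.34, adjusted p = 0.00345 with the term), and 1 of its 5 probes did not follow. Myod1 read 0.13 and -1.96 at day 0 and 0.71 and -0.19 at day 1, so the groups overlapped, and its change of 1.17 ± 0.26 was called with the term only (adjusted p = 0.0231). Without either array of replicate 2 that call was lost (up to 0.227). The fourth that rose was Tcf4, an E-protein, by 0.94 with the term, and 1 of its 3 probes went the other way. Myf5, the MyoD-family factor of myoblasts, changed by -0.19 and was not called.

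Among the antagonists of the myogenic factors Id1, Id2, Id3 and Twist2 fell, Id2 with the term only. Id1 read 2.30 and 2.41 at day 0 and 0.21 and -0.71 at day 1, and Id3 read 2.25 and 2.37 and then 0.13 and -0.16. Id2, the third Id protein gene that moved, read 2.07 and 1.29 and then 0.02 and -0.48. Id1 (-2.60 ± 0.35) and Id3 (-2.33 ± 0.19) fell in both models, with adjusted p of 0.019 and 0.00551 without the term, while Id2 (-1.91 ± 0.13) fell with the term only (adjusted p = 7.68e-05 with and 0.0872 without it). Twist2, a repressor of MyoD activity, read 1.95 and 1.90 and then 0.12 and -0.12, a fall of 3.81-fold (adjusted p = 0.00748 without the term). Twist1 changed by -0.62, with the term only, and its call was lost without the day 0 array of replicate 1 or the day 1 array of replicate 2 (adjusted p up to 0.119). Zeb1, a zinc finger repressor that binds E-boxes, went up instead, from -1.32 and -1.5 to 0.17 and 0.14 (1.57 ± 0.16, adjusted p = 0.00921 without the term). Hes6, an inhibitor of Hes1 that promotes myogenesis, read -0.84 and -2.94 and then 0.29 and -0.22 (1.92 ± 0.38, adjusted p = 0.0124 with the term, up to 0.133 without an array of replicate 2). Of this list of 17, then, 5 fell and 3 rose with the term, 1 rising without the day 1 array of replicate 2. Of 12 progenitor factors of the Pax and Eya families and their partners Eya1 alone was called, at -1.01 with the term, and 1 of its 4 probes went the other way; without either day 1 array it was not called (adjusted p up to 0.103). Of 20 immediate early genes and Myc family members Srf, the serum response factor, alone was called (0.78 ± 0.14, adjusted p = 0.00714 with the term, up to 0.0839 without an array of replicate 1), and 1 of its 2 probes did not follow.

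**Figure D2:**
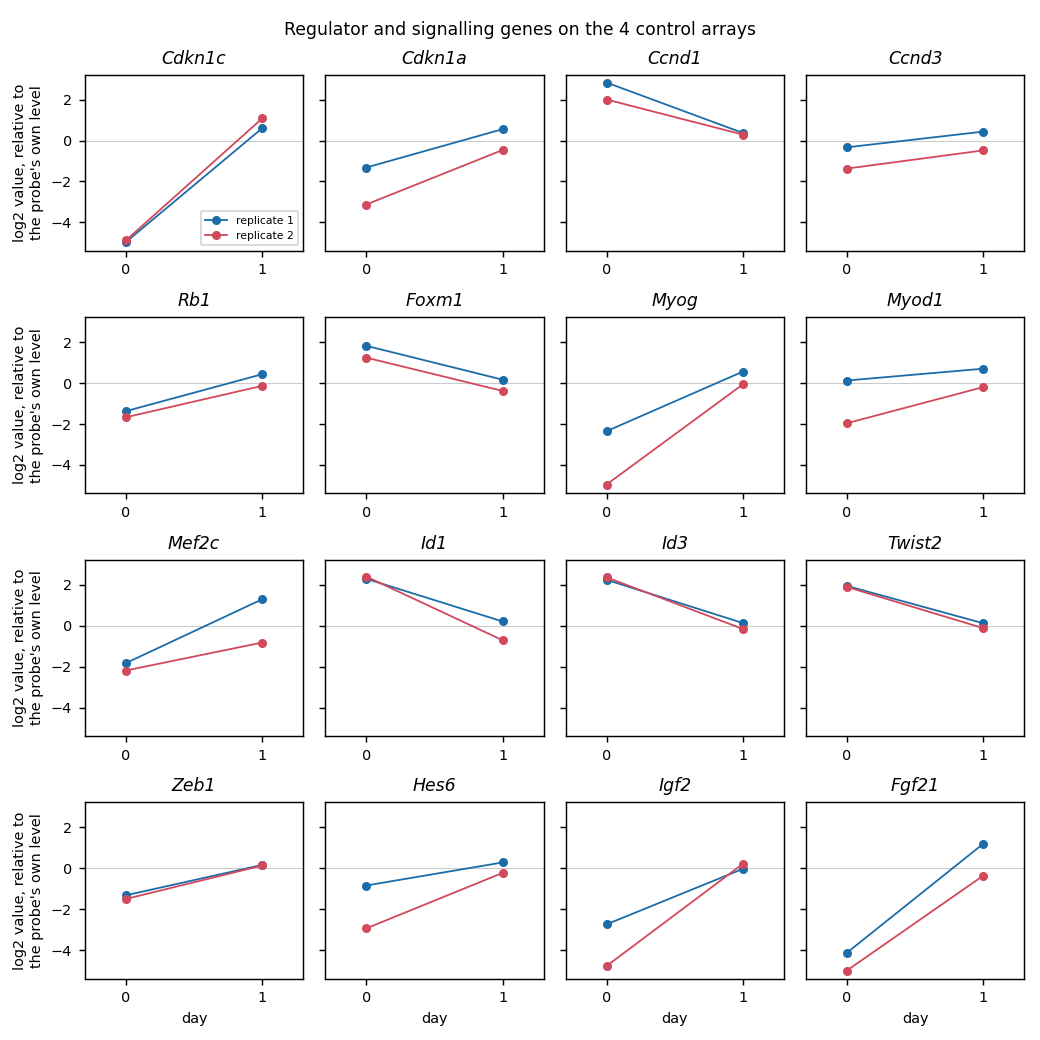
Values of 16 regulator and signalling genes on the 4 control arrays, in log2 units relative to each probe's own level (y axis), at day 0 and day 1 (x axis); lines join the arrays of a replicate. Both lines rise or both fall in each panel, and replicate 2 lies below replicate 1 at both days for Myod1, Cdkn1a and Ccnd3.

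Genes of DNA replication fell nearly throughout. Of 50 genes for origin licensing and the replication fork, 20 fell without and 42 with the replicate term, none rose, and the median change was -1.41 (-1.14 in pair 1 and -1.72 in pair 2). Since the arrays hold bulk RNA, fewer cycling cells and less of each transcript per cell cannot be told apart. Cdt1, which loads the MCM helicase at origins, read 2.0 and 2.08 at day 0 and 0.38 and 0.08 at day 1. Mcm2, a helicase subunit, read 1.59 and 2.04 and then 0.43 and -0.20, and Mcm5, another subunit, read 2.20 and 2.47 and then 0.67 and -0.61. In all of them both day 1 arrays lay below both day 0 arrays, as in 45 of the 50 genes and in 13.1% of all features. The changes were -1.81 ± 0.22 for Cdt1 (adjusted p = 0.0186 without the term), -1.70 ± 0.28 for Mcm2 (0.0307) and -2.31 ± 0.41 for Mcm5 (0.00716 with and 0.0717 without the term, and up to 0.089 with the term when an array of replicate 2 was left out). Across the list the calls with the term numbered 29 to 41 when 1 control array was left out, and those without it 0 to 15, 0 without either day 0 array or the day 1 array of replicate 2. Mcm10, which joins the helicase at activation, and Gins2, a subunit of the active helicase, changed by -2.04 and -1.86 and were called in both models. The chromatin side of the fork went along: Chaf1a and Chaf1b, which deposit histones behind it, changed by -1.92 and -1.87, and Dnmt1, the maintenance DNA methyltransferase, by -1.72, all called in both models.

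The genes for deoxynucleotide synthesis were all lower, with a median of -0.93 over 15 genes, and 4 fell without and 10 with the term. Tyms, thymidylate synthase, read 1.68 and 1.99 and then 0.30 and -0.30 (-1.84 ± 0.29, adjusted p = 0.028 without the term). Tk1, thymidine kinase, read 2.16 and 2.20 and then 0.70 and -0.69 (-2.18 ± 0.33, adjusted p = 0.00336 with the term), with 1 of its 4 probes near 0 and of opposite sign. Dut, which breaks down dUTP, was among the smaller falls, at -0.70, and lost its call in 3 of the 4 fits that left out an array (adjusted p up to 0.101). Without either day 0 array or the day 1 array of replicate 2, none of the calls made without the term remained. Of 28 genes for DNA repair and checkpoints, 2 fell without and 11 with the term, with a median of -0.48; without the day 1 array of replicate 2 the calls with the term were 5. Rad54l, which acts in homologous recombination, fell most clearly, from 1.76 and 1.84 to 0.26 and -0.14 (adjusted p = 0.019 without the term).

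Mitotic genes fell by a similar amount. The list of 62 kinases, spindle and cytokinesis genes had a median of -1.43, with -1.26 in pair 1 and -1.55 in pair 2, and 28 fell without and 45 with the term while none rose. Leaving out 1 control array gave 41 to 45 calls with the term, and without it 0, 1 and 3 when the array left out was that of replicate 1 at day 0 or of replicate 2 at day 0 or day 1. Plk1, the polo-like kinase, read 2.10 and 2.20 at day 0 and 0.48 and -0.07 at day 1. Birc5, survivin, read 2.05 and 2.24 and then 0.31 and -0.13. Aurkb, the kinase that works in a complex with Birc5, read 1.93 and 1.93 and then 0.29 and -0.24. These genes lay close together in the replicates at day 0, and they fell by 1.94 ± 0.26, 2.05 ± 0.27 and 1.90 ± 0.22, each called in both models (adjusted p = 0.0194, 0.019 and 0.0162 without the term). Mki67, the proliferation marker Ki-67, read 1.59 and 1.5 and then 0.20 and -0.45 (-1.67 ± 0.29, adjusted p = 0.0359 without the term). Cdk1 itself read 1.80 and 1.47 and then 0.38 and -0.53, and was called with the term only (-1.71 ± 0.22, adjusted p = 0.00139). Ccna2, cyclin A2, changed less than most of the list, by -0.51 with the term, and its call was lost in 3 of the 4 fits that left out an array (adjusted p up to 0.121).

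Histone genes fell unevenly. Of 54 replication-dependent histones and variants, 3 fell and 1 rose without the term and 26 fell and 2 rose with it, and the median was -0.30 in pair 1 against -1.44 in pair 2. The count with the term rested on replicate 2: 5 fell without its day 0 array and 3 without its day 1 array. H2ac21 read 2.16 and 2.22 at day 0 and 0.47 and -0.78 at day 1 (-2.34 ± 0.43, adjusted p = 0.0464 without the term). H2ac19 went from -1.35 and -1.06 to 0.26 and 0.70 (1.69 ± 0.31, adjusted p = 0.048 without the term), and H2ac18 rose by 1.61 with the term. Without the day 0 array of replicate 1 or the day 1 array of replicate 2 neither was called with the term (adjusted p up to 0.0809 and 0.0802). Many histone genes are near-identical in sequence, so signal may be shared between their probes, and the values of single members are uncertain. In the siG9a course H2ac19 and H2ac18 changed by 0.87 and 0.78 and were called in neither model.

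E2F motifs were more frequent in the replication list than in all promoters, and CCAAT boxes in both the replication and the mitotic list. In the mitotic list E2F motifs were found in only 3 of 53 promoters (5.66%). Among measured named genes the shares were 2.46% for E2F motifs and 39.2% for CCAAT. The promoters of Mcm5, Cdc6 and Cdca8 are shown as examples that hold such motifs. Each is the 250 bases before the start of the gene in RefSeq on the GRCm38.p6 build, printed 5′ to 3′ on the strand of the gene, with motif matches in capitals. Mcm5 (chr8:75109259-75109508, + strand) holds overlapping matches to the E2F motifs TTTCGCGC and TTTGGCGC, the second read on the other strand, and 2 CCAAT boxes. Cdc6 (chr11:98907901-98908150, + strand), which encodes the factor that loads the MCM helicase together with Cdt1, holds the E2F motif TTTCCCGC on the other strand. Cdca8 (chr4:124936918-124937167, - strand), a subunit of the complex of Aurkb and Birc5, holds 3 CCAAT boxes on the other strand.
Mcm5: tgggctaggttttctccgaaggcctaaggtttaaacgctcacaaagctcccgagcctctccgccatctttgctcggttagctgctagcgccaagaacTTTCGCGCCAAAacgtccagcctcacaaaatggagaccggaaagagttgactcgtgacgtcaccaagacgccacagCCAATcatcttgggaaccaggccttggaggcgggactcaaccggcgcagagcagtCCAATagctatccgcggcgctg
Cdc6: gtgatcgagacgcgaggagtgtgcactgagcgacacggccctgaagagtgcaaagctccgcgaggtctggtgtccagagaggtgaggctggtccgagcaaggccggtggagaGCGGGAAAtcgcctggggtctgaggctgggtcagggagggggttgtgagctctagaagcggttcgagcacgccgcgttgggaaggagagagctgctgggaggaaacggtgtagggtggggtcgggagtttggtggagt
Cdca8: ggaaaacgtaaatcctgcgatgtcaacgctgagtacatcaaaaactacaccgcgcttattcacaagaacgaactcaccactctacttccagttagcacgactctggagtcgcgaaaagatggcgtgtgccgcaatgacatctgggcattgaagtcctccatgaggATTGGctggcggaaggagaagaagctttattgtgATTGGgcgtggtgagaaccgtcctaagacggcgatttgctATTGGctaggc
On both strands the E2F motifs TTTCCCGC, TTTGGCGC and TTTCGCGC, which can overlap each other, were found in 26.8% of the promoters of the replication list (11 of 41 with an entry) and in 1.78% of the promoters of 27025 genes. CCAAT was found in 73.6% of the mitotic list (39 of 53) and in 37.5% of all. It was also found in 61.0% of the replication list (25 of 41) and 57.7% of a list of redox genes (15 of 26). The motifs TTTGAA or TTCGAA, the letters of the CHR element of mitotic genes, were found in 39.6% of the mitotic list and 19.6% of all. A match is a description of these letters and not a site that was measured. The 3 genes themselves went down: Cdc6 changed by -1.71 ± 0.32 (adjusted p = 0.00934 with the term, up to 0.104 without an array of replicate 2) and Cdca8 by -1.88 ± 0.28 (adjusted p = 0.0241 without it).

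Sarcomere genes rose, by more than most other lists. Of 21 troponins, sarcomeric actins, tropomyosins and their partners, 14 rose and 1 fell with the replicate term, none was called without it, and the median rise was 2.99 (2.70 in pair 1 and 2.78 in pair 2). Tnnc2, fast troponin C, read -2.95 and -6.10 at day 0 and 0.50 and -0.60 at day 1. Actc1, the cardiac actin that is also made in young skeletal fibres, read -2.81 and -6.31 and then 0.54 and -0.07, and Acta1, the skeletal actin, read -1.75 and -4.44 and then 0.19 and -0.05. In each of them replicate 2 started far below replicate 1, and at day 1 it was still lower but the replicates lay closer together than at day 0. With the term the rises were 4.47 ± 0.60 for Tnnc2 (adjusted p = 0.00171), 4.79 ± 0.79 for Actc1 (0.00509) and 3.17 ± 0.65 for Acta1 (0.0151), against 0.183, 0.183 and 0.255 without it. Without an array of replicate 2 the calls of Actc1 and Acta1 were lost (up to 0.0664 and 0.169). Klhl40, a stabiliser of thin filament proteins, gave a smaller p, at 2.83 ± 0.18 (adjusted p = 4.54e-05 with the term). The member that fell was Tpm3, the slow tropomyosin gene, whose transcripts are also made outside muscle (-0.99, adjusted p = 0.00517 with the term), and its other 3 probes went the other way. The call of Tpm3 was also lost without an array of replicate 1 (up to 0.0715).

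All 14 genes of the sarcomeric myosin list were higher at day 1 in both pairs, as were 9831 of all 31443 features, and 6 were called with the term. Some changes were near 0, such as 0.01 for Myh2 in pair 1 and 0.01 for Myl3 in pair 2. The list includes Mylk2, a kinase of myosin light chains, at 0.02 in pair 1 and 0.24 in pair 2, with 2 of its 4 probes opposite. Myh3, the embryonic heavy chain, read -2.67 and -4.96 and then 0.44 and -0.47 (3.80 ± 0.48, adjusted p = 0.0013 with the term). Myh8, the perinatal heavy chain, read -2.64 and -4.39 and then 1.80 and -2.27. Its rise was 4.44 in pair 1 but 2.13 in pair 2 (adjusted p = 0.0026 with the term), and over the list the medians of the pairs also stood apart, at 1.90 and 0.39. Myh7, the slow heavy chain, moved less, by 1.35 ± 0.20.

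The Z-disc, titin and M-band list held genes that both models called. Pdlim5, a PDZ and LIM protein of the Z-disc, read -1.70 and -1.71 at day 0 and -0.07 and 0.05 at day 1, although 2 of its 4 probes did not follow. Fhl1, a LIM protein of muscle, read -1.46 and -1.87 and then 0.29 and -0.10. Unc45b, the chaperone that folds myosin heads, read -3.44 and -4.78 and then 0.76 and -0.64. They rose by 1.70 ± 0.17, 1.76 ± 0.26 and 4.18 ± 0.77 (adjusted p = 0.00921, 0.0241 and 0.0464 without the term), and 25 of the 34 genes of the list rose with the term, none falling. Ttn, titin, read -2.94 and -4.74 and then 0.59 and -0.79 (3.73 ± 0.29, adjusted p = 0.000114 with the term), with 2 of its 12 probes opposite. Flnc, filamin C, rose by 1.64 ± 0.12 and Csrp3, the muscle LIM protein, by 3.48 ± 0.22, both with the term. Des, the intermediate filament of myoblasts and muscle alike, rose by 0.67 with the term, its arrays overlapped between the days, and the call was lost without an array of replicate 1 (adjusted p up to 0.176).

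Of 26 genes for excitation-contraction coupling, the link from membrane depolarisation to calcium release, 17 rose and 1 fell with the term, with a median of 1.19. Atp2a1, the fast calcium pump of the sarcoplasmic reticulum, read -3.50 and -5.30 and then 0.33 and -0.57 (4.28 ± 0.39, adjusted p = 0.000235 with and 0.0555 without the term). Ryr1, the calcium release channel, read -2.74 and -4.05 and then 0.71 and -0.83, and its rise was 3.45 in pair 1 and 3.23 in pair 2 (adjusted p = 7.33e-05 with the term). Cacna2d1, a subunit of the voltage-gated calcium channel, was the member called lower (-0.84), and its other 2 probes went the other way. Energy genes followed: 13 of 24 rose with the term and none fell, and 8 rose when the day 1 array of replicate 1 was left out. Ckm, muscle creatine kinase, read -3.60 and -5.00 and then 1.42 and -1.10, a rise of 5.02 in pair 1 and 3.90 in pair 2 (4.46 ± 0.28, adjusted p = 5.06e-05 with the term). Ckb, the brain form, also rose, by 2.84 ± 0.31 with the term, as did Pgam2, the muscle phosphoglycerate mutase, by 3.75 ± 0.26.

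**Figure D3:**
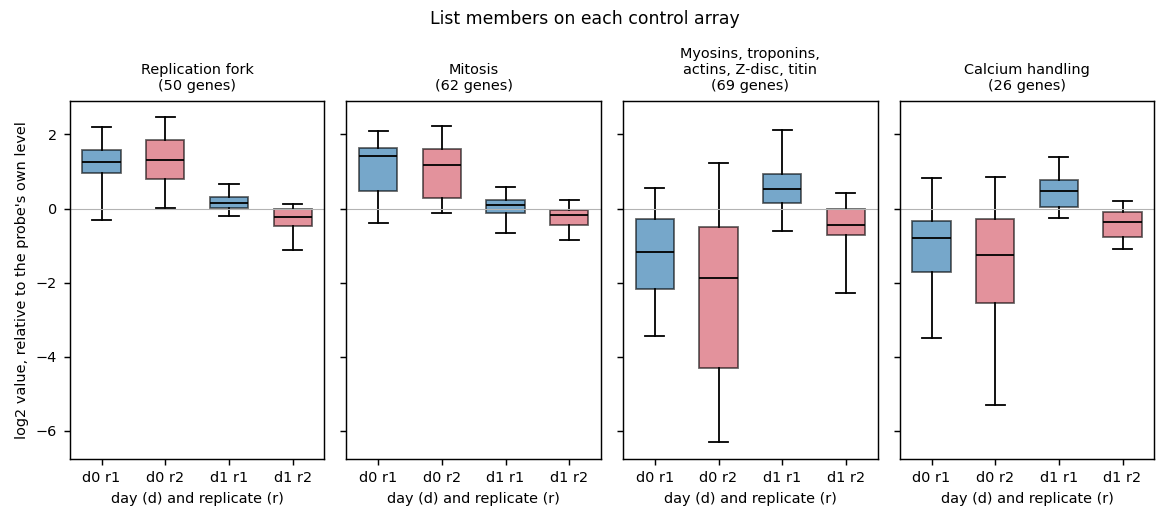
Values of the members of 4 sets of lists on each control array (log2 units relative to each probe's own level); boxes span the quartiles, lines the medians and whiskers the whole range, blue for replicate 1 and red for replicate 2. The replication and mitosis boxes lie above 0 at day 0 and around 0 at day 1, and the muscle boxes start below 0, lower in replicate 2 than in replicate 1 on both days.

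Of 14 acetylcholine receptor and synapse genes 13 were higher and 8 rose with the term. Chrng, the gamma subunit of the embryonic receptor, read -2.26 and -5.06 at day 0 and 0.34 and -0.42 at day 1 (3.62 ± 0.55, adjusted p = 0.00347 with the term). Of 19 genes for the dystrophin complex and muscle integrins 9 rose with the term. Dag1, dystroglycan, was called in both models and read -1.91 and -1.31 and then 0.20 and 0.09 (1.75 ± 0.22, adjusted p = 0.0187 without the term). Dmd, dystrophin itself, spanned only -0.17 to 0.22 over the 4 arrays and was not called. The genes for fusion and recognition did not move as a list: 2 of 26 rose, 1 fell, and the median was 0.02. The risers were Mymk, myomaker, the membrane protein needed for myoblast fusion, which read -2.54 and -4.84 and then 0.71 and -0.57 (3.76 ± 0.42, adjusted p = 0.000646 with the term), and Cdh15, M-cadherin, from -0.89 and -2.32 to 1.0 and -0.03 (2.08 ± 0.18, adjusted p = 0.000181). Kirrel3, a recognition protein of the nephrin family, was the member that fell, by 0.83 with the term.

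The promoters of Chrng, Acta1 and Ttn are shown for the E-box, MEF2 and serum response motifs counted in the muscle lists, from the same source and in the same form. Chrng (chr1:87205561-87205810, + strand) holds 2 copies of the E-box CAGCTG, the form that MyoD and myogenin bind. Acta1 (chr8:123894776-123895025, - strand) holds 1 such E-box and a match to the serum response element. Ttn (chr2:76982548-76982797, - strand) holds a match to the MEF2 motif and 2 CCAAT boxes.
Chrng: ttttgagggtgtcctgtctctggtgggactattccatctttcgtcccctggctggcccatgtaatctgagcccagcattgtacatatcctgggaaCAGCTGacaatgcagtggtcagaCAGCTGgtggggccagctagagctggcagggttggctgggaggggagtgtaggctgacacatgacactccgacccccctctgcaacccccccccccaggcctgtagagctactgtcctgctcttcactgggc
Acta1: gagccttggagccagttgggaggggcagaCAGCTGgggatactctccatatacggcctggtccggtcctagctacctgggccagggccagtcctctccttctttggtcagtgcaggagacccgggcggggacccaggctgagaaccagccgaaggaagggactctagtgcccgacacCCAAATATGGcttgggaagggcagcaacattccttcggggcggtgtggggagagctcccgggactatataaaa
Ttn: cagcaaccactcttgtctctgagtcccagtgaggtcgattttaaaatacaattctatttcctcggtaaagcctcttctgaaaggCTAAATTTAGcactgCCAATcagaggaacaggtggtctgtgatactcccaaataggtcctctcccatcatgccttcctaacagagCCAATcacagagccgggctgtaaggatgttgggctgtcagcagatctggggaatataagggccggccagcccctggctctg
The E-box was found in 34.2% of the promoters of the contraction, calcium and synapse lists (27 of 79 genes with an entry) and in 14.7% of all promoters. For the MEF2 motif the shares were 15.2% and 1.99%, and for the serum response element 11.4% and 1.62%. The E-box reads the same on both strands, and these counts cover only 250 bases, so a gene without a match may be bound elsewhere.

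Muscle ubiquitin ligases and splicing factors each held genes called in both models. Asb2, the specificity subunit of a ubiquitin ligase that acts on filamins, read -4.04 and -4.75 at day 0 and 0.07 and -0.51 at day 1 (4.18 ± 0.55, adjusted p = 0.019 without the term). Klhl31, a Kelch-family adaptor of muscle, read -2.02 and -2.18 and then 0.11 and -0.38 (1.96 ± 0.28, adjusted p = 0.0211 without the term). Of 19 genes of this list 7 rose with the term, 4 without the day 1 array of replicate 2, and none fell. Rbfox1 and Rbfox2 encode related splicing factors that set muscle exons. Rbfox1 read -2.76 and -3.01 and then 0.03 and -0.51, and Rbfox2 read -0.63 and -0.76 and then 0.27 and 0.28. Both rose in both models, by 2.65 ± 0.37 and 0.97 ± 0.17 (adjusted p = 0.0211 and 0.0417 without the term), but the least moved of the 3 Rbfox1 probes changed by 0.07. Ptbp1, a repressor of muscle and neuronal exons, went down instead, from 0.94 and 1.11 to -0.35 and 0.10 (-1.15 ± 0.13, adjusted p = 0.000663 with the term), and all its 6 probes were lower. The list of 15 splicing regulators was thus split, with 3 up and 3 down with the term, 1 of them down without the day 1 array of replicate 2 or either day 0 array.

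**Figure D4:**
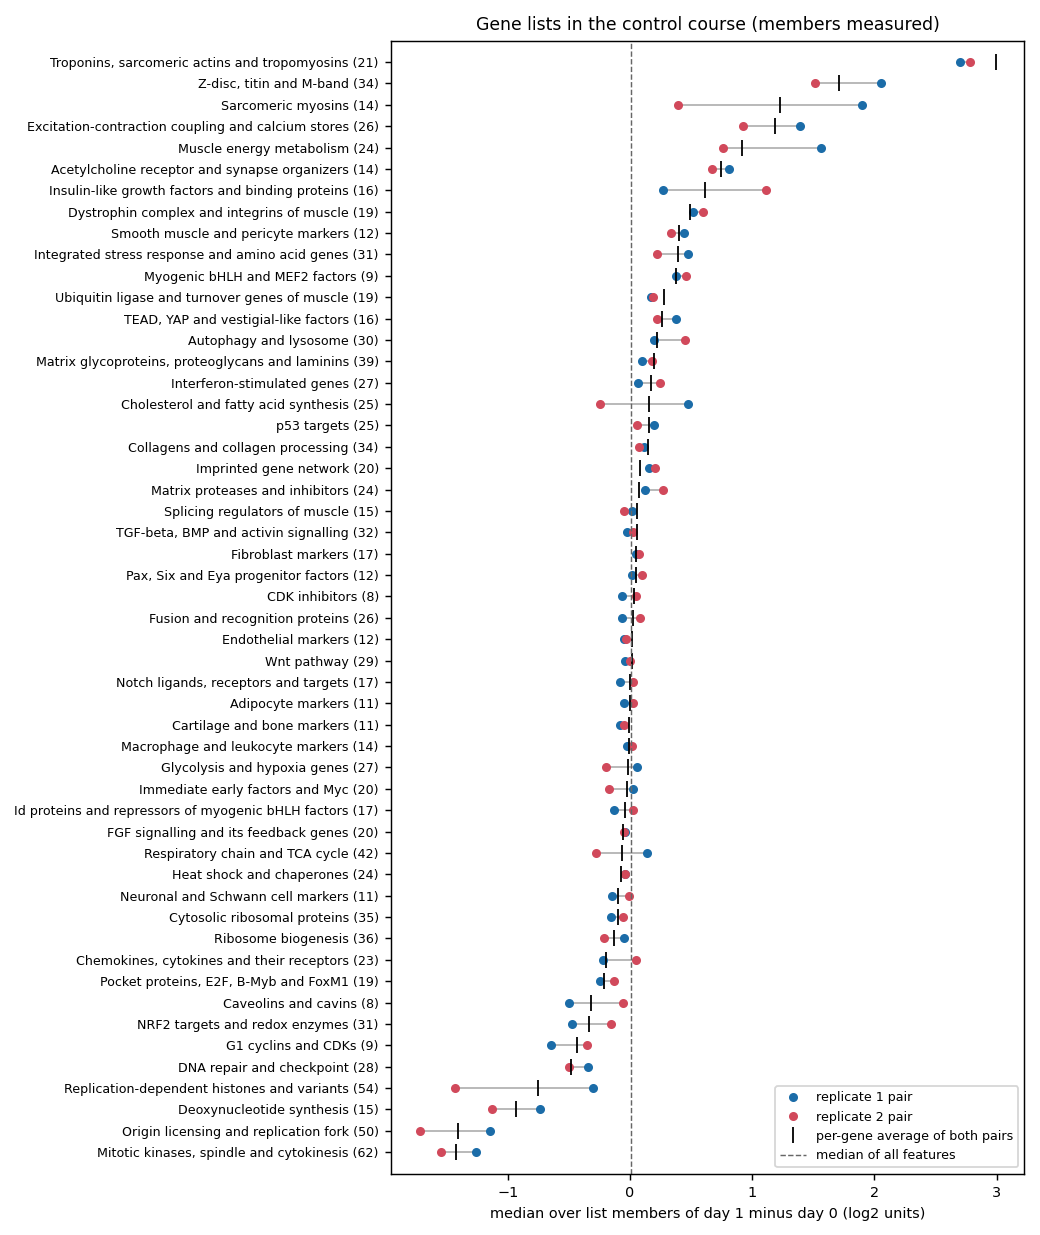
Median change from day 0 to day 1 of each gene list (x axis, log2 units; number of genes measured in parentheses), in replicate 1 (blue), replicate 2 (red) and over per-gene averages (black bar). Contraction lists lie at the upper end, up to 2.99, the replication and mitotic lists at the lower end, near -1.4, and most signalling, marker and housekeeping lists lie near the median of all features, 0.01.

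The 2 growth factor lists differed. In the insulin-like growth factor list 13 of 16 genes were higher, with a median of 0.62 (0.27 in pair 1 and 1.11 in pair 2). In the FGF list 8 of 20 were higher, with a median of -0.06, and 1 rose and 3 fell with the term. Igf2, an autocrine growth factor of differentiating myoblasts, read -2.74 and -4.78 at day 0 and -0.02 and 0.23 at day 1 (3.86 ± 0.61, adjusted p = 0.00413 with and 0.0601 without the term). H19, the imprinted neighbour of Igf2, rose by 1.28 ± 0.22 with the term (adjusted p = 0.00589). Igf1 rose by 1.66 ± 0.26 (adjusted p = 0.00415) and Igfbp2, a binding protein, fell by 1.21 ± 0.14 (adjusted p = 0.000704), both with the term only. Over the 16 genes of the insulin-like growth factor list 6 rose and 2 fell with the term, and 3 rose and 1 fell without either array of replicate 2, where Igf2 and H19 missed the threshold (adjusted p up to 0.0555 and 0.0797). Fgf21, an endocrine factor that stressed muscle releases, read -4.13 and -5.00 and then 1.21 and -0.35, a rise of 31.9-fold (adjusted p = 0.0237 without the term). Fgf7, a ligand for epithelial receptors, read 0.41 and 4.02 at day 0 and -1.26 and 1.24 at day 1. Its arrays overlapped between the days, but it was lower in both pairs (-2.23 ± 0.36, adjusted p = 0.00483 with and 1 without the term). Without an array of replicate 2 the call of Fgf7 was lost (up to 0.0643).

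In the TGF-beta family Tgfb2 and Grem1 were called in both models, in opposite directions. Tgfb2, a ligand, read -1.16 and -1.10 and then 0.31 and 0.14 (1.36 ± 0.17, adjusted p = 0.019 without the term). Grem1, a secreted antagonist of BMPs, read 1.96 and 2.02 and then -0.36 and 0.43 (-1.96 ± 0.32, adjusted p = 0.0311 without the term). Fst, follistatin, which binds myostatin and activins, read -2.35 and -3.34 and then 0.38 and -0.81 (2.63 ± 0.14, adjusted p = 3.33e-05 with the term). The 32 genes of the list gave 4 rises and 6 falls with the term, 2 or 3 falls when any 1 control array was left out, and a median of 0.05. Of 16 TEAD, YAP and vestigial-like genes 4 rose and none fell with the term, Tead4, a TEAD factor induced by MyoD, by 2.09 ± 0.20 and Vgll3, a TEAD cofactor, by 1.70 ± 0.10. Of 17 Notch genes 3 rose with the term, Dll1, a ligand, by 1.36 (lost in 3 of the 4 fits that left out an array, adjusted p up to 0.175), and of 29 Wnt genes 2 rose and 3 fell. With any 1 control array left out at most 1 Notch gene rose and at most 1 Wnt gene fell.

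Matrix genes also split. Ogn, the proteoglycan osteoglycin, read -2.25 and -1.86 at day 0 and 0.97 and 0.68 at day 1 (2.88 ± 0.21, adjusted p = 0.00239 without the term). Nid2, a basement membrane nidogen, read -0.95 and -0.94 and then 0.67 and 1.48 (2.02 ± 0.33, adjusted p = 0.0307 without the term). Timp1, an inhibitor of metalloproteinases, and Plaur, the urokinase receptor, fell in both models, by 1.41 ± 0.26 and 1.27 ± 0.18, although Timp1 was not called with the term when the day 1 array of replicate 2 was left out (adjusted p = 0.065). Col1a1, fibrillar collagen I, showed the replicate difference plainly: it read -3.22 and -0.36 at day 0 and -1.25 and 1.14 at day 1. It rose within both pairs (1.73 ± 0.13, adjusted p = 0.000112 with and 1 without the term), but 1 of its 2 probes did not follow. Of 34 collagen genes 5 rose and 4 fell with the term, 3 rose and 1 fell without either array of replicate 1, and 2 fell without either array of replicate 2.

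Redox genes moved down and genes of the integrated stress response up. Nqo1, a quinone reductase and a target of the oxidant-responsive factor NRF2, read 3.45 and 2.91 at day 0 and -0.06 and 0.32 at day 1. The other of its 2 probes changed by only -0.2. Srxn1, sulfiredoxin, read 1.89 and 1.56 and then -0.14 and 0.14, and Gclm, a subunit of the enzyme that limits glutathione synthesis, read 1.87 and 1.27 and then 0.09 and -0.34. They fell by 3.06 ± 0.33, 1.73 ± 0.21 and 1.69 ± 0.26 (adjusted p = 0.0125, 0.0178 and 0.0284 without the term), and Ftl1, ferritin light chain, fell by 1.55 in both models. Of the 31 genes of the list 4 fell without and 8 with the term, none rose, and the median was -0.34. With any 1 control array left out, 4 fell with the term. The antioxidant response core TGACNNNGC was found in 26.9% of their promoters (7 of 26) and in 11.5% of all. Of 31 genes of the integrated stress response, the programme run by the factor ATF4, 12 rose and 1 fell with the term. Nupr1, a stress-induced chromatin protein, read -1.94 and -1.14 and then 0.17 and 0.26, and Trib3, a pseudokinase target of the pathway, read -1.54 and -1.40 and then 0.44 and -0.08. Both rose in both models, by 1.75 ± 0.25 and 1.65 ± 0.25 (adjusted p = 0.0211 and 0.0249 without the term). Chac1, which degrades glutathione, rose by 2.64 ± 0.15 with the term. Cebpb, a transcription factor, was the member that fell (-1.04 with the term).

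The medians of the cholesterol, ribosomal protein, respiratory chain and glycolysis lists were near 0, from -0.10 to 0.15. With the term 4.0%, 11.4%, 7.14% and 14.8% of their genes were called, against 8.83% of all features and 10.9% of named genes. Of 25 cholesterol and fatty acid synthesis genes 1 was called with the term, Mvd, an enzyme of the mevalonate pathway, at 0.77, a call that 3 of the 4 fits that left out an array lost (adjusted p up to 0.157), and the pair medians were 0.47 and -0.25. Of 35 cytosolic ribosomal protein genes 4 fell with the term and none rose (median -0.10), and of 42 respiratory chain and TCA cycle genes 3 fell and none rose (median -0.07). Of 27 glycolysis and hypoxia genes 4 fell, with a median of -0.02. Without the day 1 array of replicate 2 the falls in these 3 lists were 1, 0 and 1, without its day 0 array 1, 0 and 3, without the day 0 array of replicate 1 2, 2 and 2, and without its day 1 array 4, 2 and 2.

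The largest falls outside these lists were those of the proliferins, secreted prolactin relatives of growing cells. Prl2c3 read 4.38 and 3.88 at day 0 and -0.22 and -0.15 at day 1, a change of -4.32 ± 0.26 (adjusted p = 0.000873 without the term). Prl2c4 and Prl2c2 changed by -4.30 and -4.12, but these genes are near-identical, so their probes may share signal. Aqp1, a water channel, read 3.08 and 3.67 and then 0.08 and 0.50, a fall of 8.49-fold. Among the largest rises outside the lists, Ramp2, a partner of the calcitonin-like receptor, read -1.72 and -1.82 and then 1.21 and 1.89, and Rtn4, which shapes the endoplasmic reticulum, read -2.42 and -2.35 and then -0.01 and -0.14. These 3 were called in both models (adjusted p = 0.00921 for Aqp1, 0.00681 for Ramp2 and 0.00748 for Rtn4 without the term), but the least moved of the 5 Rtn4 probes changed by 0.28.

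The label of skeletal myoblasts was set against its markers. Of the 7 identity genes Des, Cdh15, Ncam1 (2.15), Itga7 (1.63) and Myod1 rose with the term, and Myf5 and Pax7 (0.09) were not called. Because each probe was set to a level of its own, presence or absence of a marker cannot be read from these values. Markers of other lineages were measured the same way. The medians were 0.05 for 17 fibroblast, 0.00 for 11 adipocyte, -0.01 for 14 macrophage and leukocyte, 0.02 for 12 endothelial, -0.09 for 11 neuronal and Schwann cell and -0.01 for 11 cartilage and bone genes. Smooth muscle and pericyte markers stood higher, with a median of 0.40 over 12 genes, and 5 of them rose with the term. Acta2, smooth muscle actin, which differentiating myoblasts also make, read -1.57 and -1.43 and then 0.17 and 0.13 (1.65 ± 0.17, adjusted p = 0.00921 without the term). Lmod1, a leiomodin of smooth muscle, rose in both models, by 0.93, and Mylk, myosin light chain kinase, read -1.52 and -1.04 and then -0.22 and 2.16 (adjusted p = 0.0128 with the term). Without an array of replicate 2 the calls of Mylk and Sox9 were lost (up to 0.139 and 0.073), and 3 of the smooth muscle markers rose without its day 0 array. Single markers fell too: Sp7, the osteoblast factor osterix, read 1.23 and 1.68 and then -0.41 and -0.05 (-1.68 ± 0.22, adjusted p = 0.019 without the term), Sox9, the cartilage factor, changed by -1.51, and Stmn2, a neuronal tubulin-binding protein, by -1.74, the latter 2 with the term only. The part of other cell types in the course was not tested.

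The siG9a arrays gave the course in cells with the other siRNA. The samples were separate from the control ones, but the choice of probe and the estimate of the spread were shared. Same-numbered control and siG9a arrays also deviated together across features, with r = 0.786 at day 0 and 0.865 at day 1. The 2 courses are therefore not independent, and how much of their likeness is shared deviation was not tested. The targeted gene, Ehmt2, read 1.23 and 0.59 in control and -0.82 and -0.69 in siG9a cells at day 0, and 0.77 and 0.66 against -0.95 and -0.31 at day 1, so every siG9a array lay below every control array. In the siG9a course 72 features rose (0.229%) and 213 fell (0.677%) without the replicate term, and 1076 (3.42%) and 1749 (5.56%) with it. With 1 siG9a array left out the counts without the term fell to between 1 and 18 rises and between 3 and 68 falls, fewest without the day 1 array of replicate 2. Of the 114 features that rose in the control course, 66 also rose in the siG9a course without the term, 57.9% of the control list and 91.7% of the siG9a list. Of the 239 that fell 168 also fell, 70.3% and 78.9%, and all 353 had the same sign in both courses. Cdkn1c changed by 5.67 in the siG9a course, Id3 by -2.21, Ogn by 2.64, Plk1 by -2.40 and Nqo1 by -3.48, each called there without the term. Myog changed by 3.28, Actc1 by 4.15 and Ckm by 3.87 (adjusted p = 0.00745, 0.0111 and 0.000131 with the term). The difference between the courses was called for 0 features in limma in either model (unadjusted p under 0.05 for 18 without and 1382 with the term, 0.0572% and 4.4%), and the smallest adjusted p with the term was 0.92. Ccdc80, a secreted matrix-associated protein that was among the smallest p of the difference, rose by 0.82 with the term in control and changed by 0.22 in siG9a (adjusted p of the difference = 0.92). With 2 arrays a group, a difference that was not called does not show that the courses were alike. Ehmt2 itself changed by -0.20 ± 0.27 and Ehmt1, its partner GLP, by 0.02 in the control course, and neither was called.

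**Figure D5:**
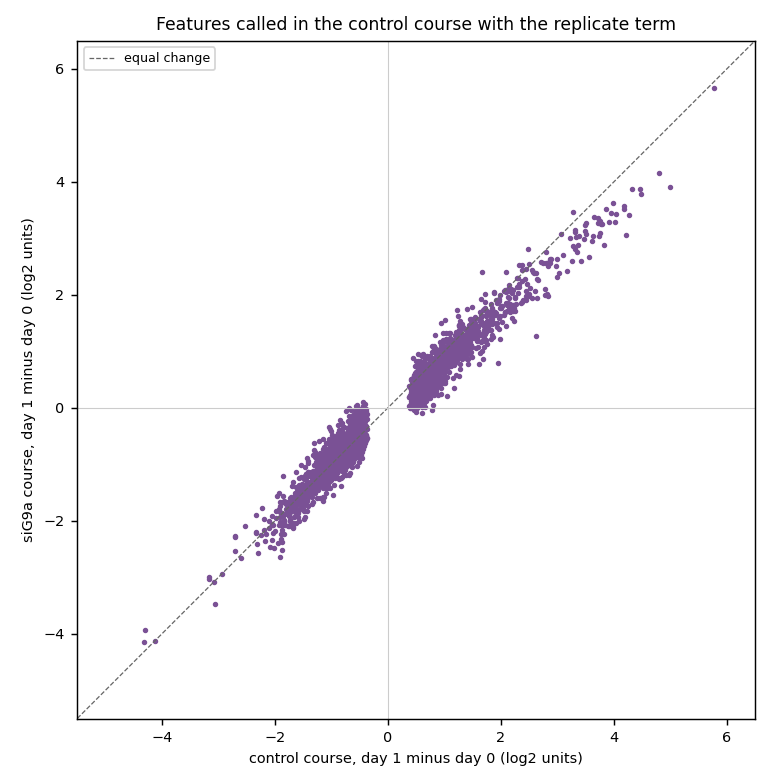
Change from day 0 to day 1 in the control course (x axis) against that in the siG9a course (y axis), in log2 units, for the 2775 features called in the control course with the replicate term. Nearly all points lie in the quadrants of equal sign, 1205 of 1212 risers and 1558 of 1563 fallers, along the dashed line of equal change.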

How the data were processed

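Total RNA of 8 myoblast samples, 4 groups of 2, was hybridised to Illumina WG-6 v2.0 BeadChips, 1 array a sample, with groups and replicate numbers taken from the titles. The values are those the authors deposited as a processed table, taken as log2 and set relative to each probe separately; which software, background correction and normalization made them is not given in the sources used here. The 16 columns of unnormalized signals and detection p-values that the authors also deposited carry names that point to no sample, so they stayed out. Probes were named from GEO's platform table, updated through RefSeq: of 45281 probes 28620 matched by Entrez ID, 2637 by accession, 4527 kept the table's symbol and 9497 had no single symbol. Other probes of a gene are mentioned where they disagree.

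Group means were compared in limma 3.58.1 (R 4.3.3, lmFit and eBayes) in a model of 4 means fitted to all 8 arrays (4 residual and 4.59 prior degrees of freedom), and in a second model to which the replicate number was added (3 and 5.87), with Benjamini-Hochberg adjustment. Same-numbered samples deviated together over all 6 pairs of groups (r from 0.613 to 0.865 across features). The numbers were therefore taken to pair the samples. Between control and siG9a groups r was 0.786 within day 0 and 0.865 within day 1. Across days it was 0.613 to 0.671. The replicate term does not take up a replicate difference that changes with the day, so its standard errors and p-values may be too small. Whether the numbers stand for a shared culture or batch is not given. P-values measure the spread between these arrays only, and arrays limit the precision. The model was also run on simulated data with known changes. Their errors were independent and their replicate difference was equal at both days, so that run does not give the error rate in these data.

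The comparison, the 52 gene lists (1311 entries, 1214 measured) and the promoters shown were chosen with earlier results of these data known, and a list is described by counts and medians with no test. Genes were named as the 30 with the largest rise or fall in both replicates among those called, in each list up to 8 members by smallest p and up to 3 that opposed its median, all regulators and markers, the smallest p of the difference between courses, Ehmt2 and Ehmt1. The genes Acta1, Ccna2, Cdc6, Cdca8, Cdk1, Des, Dmd, Dut, Gins2, Mcm2, Mcm5, Mki67 and Ttn fall outside that rule and were chosen after their values were seen. Promoters are from a RefSeq table on GRCm38.p6 (32851 entries for 27025 genes).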

Additional observations from a re-analysis of the deposited data

How the results depend on the processing

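The number of calls in the control course depended on the replicate term and on scaling. Set against 114 rises and 239 falls, the replicate block gave 1212 and 1563, median centring of each array 30 and 53, quantile normalization between arrays 3 and 1, the 4 control arrays alone 175 rises (the 263 falls were within 1.5 times), the 4 control arrays with the replicate block 1095 and 1367, and centring with the block, an alternative chosen after seeing the data, 1148 and 1618. The mean of all probes, every probe singly and a robust prior moved neither count by over 1.5 times. With 1 array left out the control course gave 2 to 941 rises and 5 to 952 falls, the upper ends with the replicate block, also added after seeing the data. For the siG9a course the block gave 1076 rises and 1749 falls against 72 and 213, centring 21 and 133, quantile normalization 5 and 8, every probe singly 109 rises, and centring with the block 779 and 2352. With 1 array left out it gave 1 to 95 rises and 3 to 268 falls. The difference between courses was called for 0 features in every alternative that kept the siG9a groups, except that it was not computed with the block when an array was left out. The causes were not tested, beyond the smaller number of arrays. Where leaving out an array left 1 sample in a group, that sample was assumed to vary like the others.

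Of 59 named genes called in both models, 2 lost the call with the block when 1 control array was left out, and of 73 called with the block only, 26 did. Of the 59 genes, 40 lost the call without the block under median centring of each array and 57 under quantile normalization. Quantile normalization with the block was not run. Direction turned in these cases, all but Cacna2d1 and Tpm3 being uncalled genes near 0: with the mean of all probes Cacna2d1 was 0.198, Tpm3 0.159 and Cdkn1b 0.0379, and with quantile normalization Cdkn1b was 0.0184 and Ehmt2 0.168. With 1 array left out Ccnd2 ranged from -0.819 to 0.0486, Cdkn1b from -0.27 to 0.222, Dmd from -0.167 to 0.219, Ehmt1 from -0.438 to 0.478, Ehmt2 from -0.632 to 0.232 and Pax7 from -0.121 to 0.296. Of 52 lists, the medians of the replication, mitotic, contraction and calcium lists kept their sign in all 21 alternatives. Background correction, a detection filter and slide as a block were not run, since the unnormalized columns could not be matched to samples and no slide is named. How far signals lay over background is unknown here.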

Other observations

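Lists without a main comparison of their own held single genes that changed. Among 24 heat shock and chaperone genes 5 rose and 3 fell with the replicate term, 3 rising without either day 0 array and 1 falling without the day 0 array of replicate 1 or the day 1 array of replicate 2. The small heat shock genes that muscle makes, Hspb2 and Hspb3, rose with the term by 1.77 and 1.75, while Hspb6, a small heat shock gene too, fell by 1.26 and Hspd1, the mitochondrial chaperonin, by 0.90, a call lost without the day 0 array of replicate 1 or the day 1 array of replicate 2 (adjusted p up to 0.0573). Of 25 p53 targets 6 rose and 3 fell with the term, and 2 to 4 rose and 0 or 1 fell when 1 control array was left out. Of 30 autophagy and lysosome genes 4 rose and 1 fell with the term, 1 rose without either array of replicate 2, and none fell with any 1 control array left out. Map1lc3a, a protein of the autophagosome membrane, read -0.93 and -1.61 at day 0 and 1.18 and 0.31 at day 1 (2.01 ± 0.17, adjusted p = 0.000155 with the term).

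Among secreted and membrane proteins, Csf1, the macrophage growth factor, read 1.43 and 1.41 at day 0 and -0.31 and 0.10 at day 1 and fell in both models (-1.53 ± 0.26, adjusted p = 0.0359 without the term). Slc2a6, a sugar transporter, read -2.52 and -2.31 and then -0.22 and 0.12 (2.36 ± 0.24, adjusted p = 0.00921 without the term). Ass1, argininosuccinate synthase, which makes the precursor of arginine, read 2.54 and 1.91 and then -0.11 and 0.34 (-2.11 ± 0.28, adjusted p = 0.019 without the term). Prkag3, the AMP-activated kinase subunit of skeletal muscle, read -1.97 and -2.11 and then 0.64 and -0.37 (2.17 ± 0.38, adjusted p = 0.0414 without the term). In all of them both day 1 arrays lay on the same side of both day 0 arrays.

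Replicate differences within a day were larger than the change between days for the matrix gene Col1a1. Col1a1 was higher in replicate 2 than in replicate 1 on both days. In Dcn, the proteoglycan decorin, the replicates stood apart mainly at day 1: it read -0.73 and -0.09 at day 0 and 0.82 and 4.06 at day 1. Dcn was higher at day 1 by 1.55 in pair 1 and 4.15 in pair 2, and its adjusted p was 0.0486 with and 0.649 without the term. Its call was lost with any 1 control array left out (adjusted p from 0.0593 to 0.362). What the replicate numbers stand for was not tested.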
